A study of Mus musculus with 6 samples.

Results

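The insulin-like growth factor (IGF) system was described in primary mouse osteoblasts through 10 genes: the ligands Igf1 and Igf2, the receptor Igf1r, the binding proteins Igfbp2, Igfbp3, Igfbp4, Igfbp5 and Igfbp6, and the pappalysins Pappa and Pappa2. Probes were named through their RefSeq accessions, which gave a gene for 27234 of 39429 probes and 20659 named genes in all. The 10 members were read by 15 probes, and all 15 met the condition for testing, a signal well above background on 2 or more of the 6 arrays. Osteoblasts were isolated from the calvariae of newborn CD1 mice aged 2 to 5 days and total RNA was hybridised to one-color Agilent arrays. Undifferentiated osteoblasts (arrays C1 and C2) were grown to confluence in medium with serum. Control differentiated osteoblasts (D1 and D2) were then kept for 30 days in differentiation medium, which held ascorbic acid and β-glycerol phosphate. Cabozantinib-treated osteoblasts (X1 and X2) received the same medium with 100 nM cabozantinib, an inhibitor of the receptor tyrosine kinases MET and VEGFR2, for 30 days. The labels and the methods give 30 days for both differentiated groups, and the results text of the study gives day 24. The labels do not say whether the 2 arrays of a group came from separate cultures or animals, so the p values measure the spread between these arrays only.

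IGF1 and IGF2 bind the type 1 IGF receptor, a tyrosine kinase that signals through the PI3K-AKT and RAS-MAPK branches, and they are abundant growth factors of bone matrix. The IGF-binding proteins hold the ligands in solution and in the matrix, away from the receptor or close to it. Pappalysins are secreted metalloproteases that cut some of these binding proteins, IGFBP4 and IGFBP5 above all, and so set ligand free, and stanniocalcins inhibit them.

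Levels are given as log2 signal relative to the 75th percentile of the same array. A level is comparable between arrays for 1 probe, not between probes. The 75th percentile lay at 678 and 1974 units of intensity on C1 and C2, 1216 and 721 on D1 and D2, and 1401 and 1090 on X1 and X2. Of the spots, 61.1% (C1), 72.9% (C2), 64.8% (D1), 67.4% (D2), 58.9% (X1) and 58.8% (X2) were well above background, and no spot was saturated. C1, C2, D1 and D2 shared 1 scan date in the file headers and X1 and X2 shared another, so scan date and cabozantinib cannot be told apart. Only the scan date was read for this, so which arrays shared a slide is not known from it. The median difference over all tested probes was 0.07 for control minus undifferentiated, -0.28 for cabozantinib minus control and -0.42 for cabozantinib minus undifferentiated. With quantile normalization the last 2 medians were -0.06 and -0.14.

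The osteoblast label was checked against 13 marker genes, of which 12 were tested. Col1a1, Col1a2 and Alpl were well above background on all 6 arrays, while Runx2 was so on 3 and Sp7 on 4. In control differentiated cultures Bglap2, an osteocalcin gene, rose by 5.05 on the log2 scale (adjusted p = 0.000623 in limma), and Dmp1, Phex, Mepe and Ibsp, genes of mineralising osteoblasts and osteocytes, also rose, Ibsp at 1 of 2 probes. Spp1, which encodes osteopontin, fell by 3.68 on the log2 scale (adjusted p = 0.0356), a call lost without the replicate block (adjusted p = 0.0606). Runx2, not well above background on D1 and D2, was at least 1.99-fold lower and did not pass (adjusted p = 0.0821). Neither Sp7 (-1.86, adjusted p = 0.074, with D1 not well above background) nor Sost (-0.53, adjusted p = 0.722) passed. From undifferentiated to cabozantinib Sp7 was called lower (adjusted p = 0.0431), a call also lost without the block (adjusted p = 0.176). Bglap was not matched to a probe here.

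The 250 bases before the transcription start are shown for the 3 members read by more than 1 probe. They come from RefSeq (GRCm38.p6), read 5′ to 3′ on the strand of the gene. Igf1 lies at chr10:87860861-87861110 on the + strand, Igfbp2 at chr1:72824230-72824479 on the + strand, at the first of 2 annotated starts, and Pappa2 at chr1:158958176-158958425 on the - strand. Capitals mark matches to any of 5 short motifs, searched on both strands.
Igf1: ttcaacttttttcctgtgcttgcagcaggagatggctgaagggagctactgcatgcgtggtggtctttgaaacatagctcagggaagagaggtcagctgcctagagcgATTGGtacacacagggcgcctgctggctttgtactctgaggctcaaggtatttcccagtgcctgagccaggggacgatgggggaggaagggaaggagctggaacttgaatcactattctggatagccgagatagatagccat
Igfbp2: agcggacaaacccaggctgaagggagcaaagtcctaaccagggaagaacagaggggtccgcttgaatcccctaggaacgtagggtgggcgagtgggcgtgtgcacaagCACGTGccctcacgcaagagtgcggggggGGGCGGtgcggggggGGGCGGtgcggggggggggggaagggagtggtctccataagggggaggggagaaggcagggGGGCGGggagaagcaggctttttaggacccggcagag
Pappa2: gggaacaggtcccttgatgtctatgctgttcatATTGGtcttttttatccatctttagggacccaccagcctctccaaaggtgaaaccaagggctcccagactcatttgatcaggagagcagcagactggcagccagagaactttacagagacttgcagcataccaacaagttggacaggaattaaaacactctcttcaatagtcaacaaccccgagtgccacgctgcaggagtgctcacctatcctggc

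Each motif was also counted in all 32851 RefSeq windows of the same length. The GC-rich element bound by Sp factors, searched as GGGCGG, occurred in 32.7% of these windows. The core promoter element read by the basal transcription machinery, searched as TATAAA, occurred in 12.4% and the element bound by NF-Y, searched as CCAAT, in 33.8%. The E box of basic helix-loop-helix factors, searched as CACGTG, occurred in 6.02% and a forkhead element, searched as TGTTTAC, in 3.17%. None of the motifs lies within another. The first Igfbp2 window held GGGCGG 3 times and CACGTG 1 time, and its GC content was 67.2% against a median of 52.4% over all windows. The Igf1 and Pappa2 windows each held CCAAT 1 time, as ATTGG on the strand shown, and none of the other 4 motifs, with GC contents of 52.8% and 49.2%. A match is a run of letters and not a shown binding site. Windows were at hand for 9 members, Pappa being the exception. In the RefSeq gene order Igfbp2 and Igfbp5 are neighbouring protein-coding genes on chromosome 1, and Igfbp3 neighbours Igfbp1 on chromosome 11.

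Differentiation was examined first, by setting the control differentiated against the undifferentiated arrays. Igf1 rose about 17-fold at its brightest probe, Igfbp5 and Pappa2 rose about 4-fold, and Igfbp3 fell. The size of the Igfbp3 fall is not known, since D1 was not well above background. In limma, with the replicate number as a block, 5 of the 15 member probes rose at an adjusted p under 0.05, against 4.74% of all tested probes, and 1 fell, against 4.92%. The 5 probes belong to 3 genes, since 3 of them read Igf1. The median difference over the 10 genes, each at its brightest probe, was -0.46, against 0.07 over all probes.

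**Figure D1:**
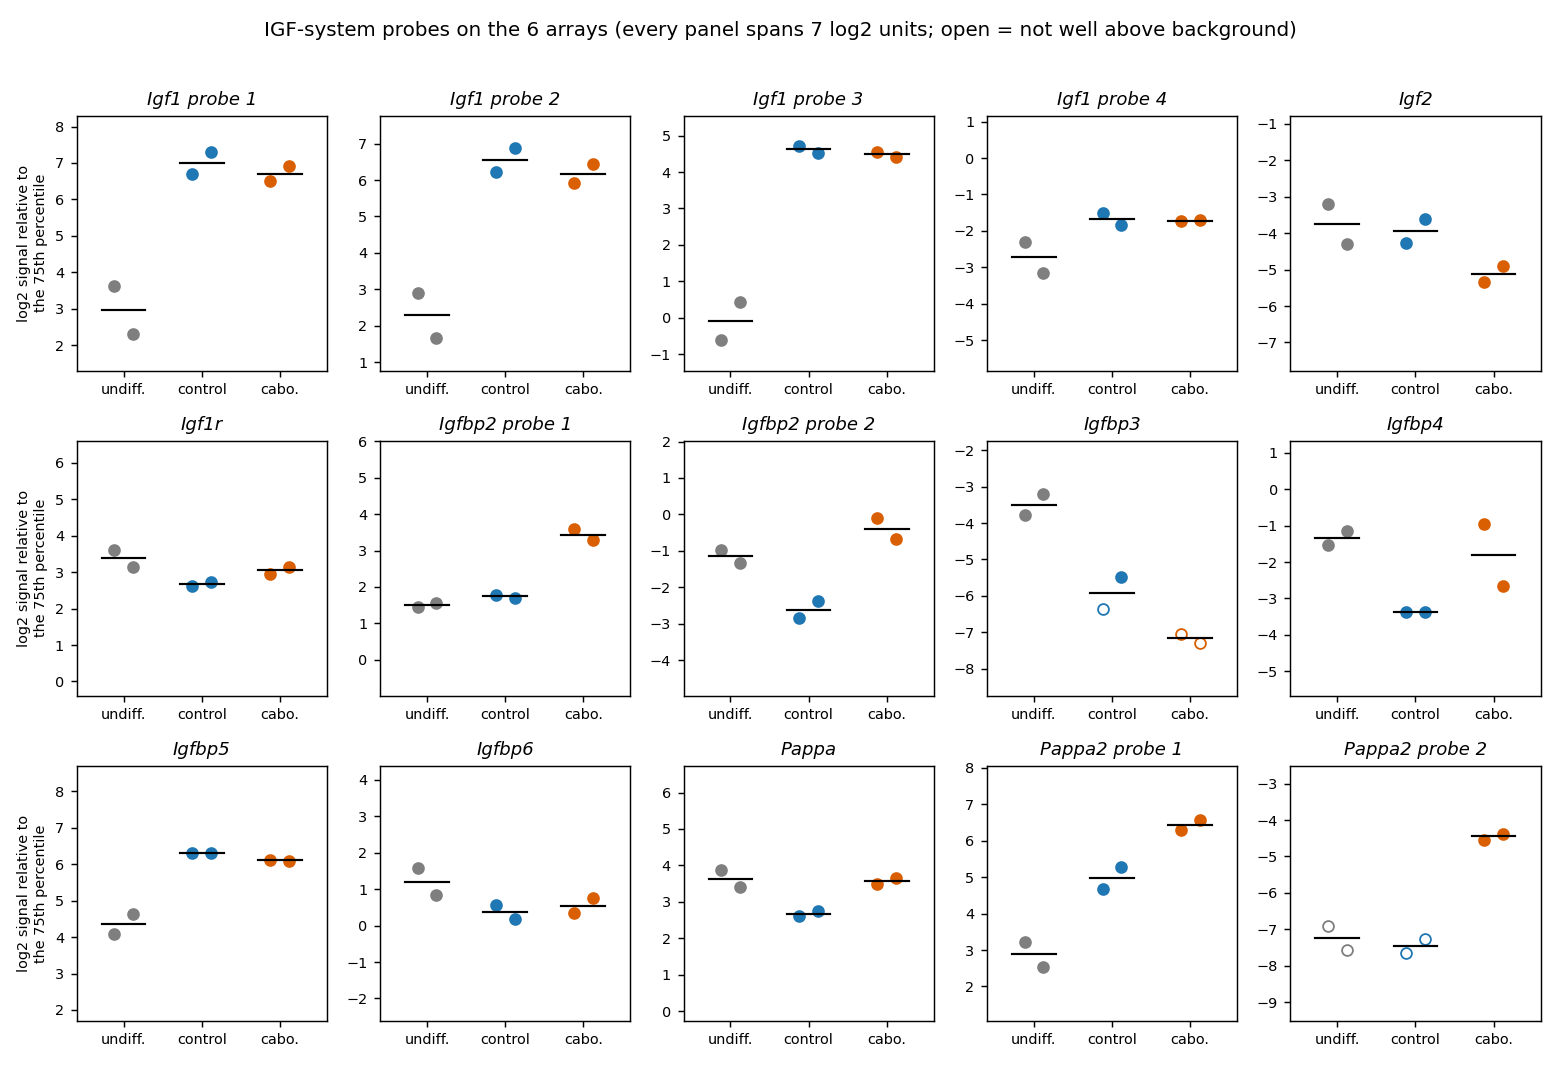
Level of each of the 15 member probes on the 6 arrays, as log2 signal relative to the 75th percentile of the array; points are arrays, bars are group means and open points are not well above background. The control and cabozantinib levels of Igf1 probe 1 lie between 6.50 and 7.31, above the undifferentiated levels of 3.61 and 2.29.

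The ligand Igf1 was the member with the largest difference between control and undifferentiated arrays. At its brightest probe (A_55_P2031631) the level was 3.61 and 2.29 on C1 and C2, 6.69 and 7.31 on D1 and D2, and 6.50 and 6.92 on X1 and X2. Both undifferentiated arrays lay far below all 4 differentiated arrays, and the control and cabozantinib arrays overlapped. In units of intensity this was 8260 and 9660 on C1 and C2 against 126000 and 114000 on D1 and D2. The difference between control and undifferentiated was 4.05 ± 0.59 (SE, n = 2 arrays per group, adjusted p = 0.00342 in limma), or 16.6-fold, and it was 4.97 without C1 and 3.13 without C2. With all arrays it was 4.26 at the second probe (adjusted p = 0.00273) and 4.72 at the third (adjusted p = 0.00115). The fourth and dimmest Igf1 probe gave 1.06 and did not pass (adjusted p = 0.274), so the probes of the gene disagree in size. All 3 calls held in each of 16 alternative limma fits, with adjusted p between 2.47e-06 and 0.0318 at the brightest probe.

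Markers of other cell types moved with Igf1. The summed level of 8 tested genes of the 10 listed for macrophages and osteoclasts, relative to the 75th percentile, was 90.7 and 50.7 on C1 and C2, 287 and 429 on D1 and D2, and 260 and 313 on X1 and X2. Csf1r, the receptor for macrophage colony-stimulating factor and the largest term of this sum on the 4 differentiated arrays (Ctsk was on C1 and C2), rose by 2.82 at its brightest probe (adjusted p = 0.0214), Adgre1, which encodes the macrophage antigen F4/80, by 4.02 (adjusted p = 0.00161), and Acp5, the osteoclast acid phosphatase, by 3.33 (adjusted p = 0.00593). The probes of a gene disagreed here too: the other 2 Csf1r probes gave 0.28 and -0.19 (adjusted p = 0.904 and 0.958) and the second Adgre1 probe gave 1.91 (adjusted p = 0.121), while the second Acp5 probe rose by 3.28. The other 5 tested genes, Cd14, Itgam, Ptprc, Lyz2 and Ctsk, did not pass, and Calcr was not well above background on any array. The summed level of 7 adipocyte genes was 4.74 and 5.42 on C1 and C2, 59.6 and 83.2 on D1 and D2, and 51.6 and 49.8 on X1 and X2. Of these, Fabp4, Lpl and Pparg rose, Lpl at 1 of 2 probes. Adipoq and Cfd were not well above background on C1 and C2, so they were tested only through the differentiated arrays. They were at least 10.72-fold and 67.43-fold higher on D1 and D2, and their calls are not counted as support. Plin1 and Cebpa gave -1.54 and -0.94 and did not pass (adjusted p = 0.364 and 0.46). Lpl was the largest term of the sum except on D2, where Fabp4 was, and Lep was not well above background on any array. Among the remaining lists, 1 of 2 Col9a1 probes and Matn1 of 6 chondrocyte genes and Cdh5 and 1 of 2 Kdr probes rose and Acta1 of muscle fell, while the summed chondrocyte level, in which Col2a1 was the largest term, was 177 and 83.2, 100 and 193, and 115 and 147 and overlapped between groups. The part of these markers in the Igf1 result was not tested, and in these whole-culture samples a change in the share of a cell type and a change in RNA per cell cannot be told apart.

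**Figure D2:**
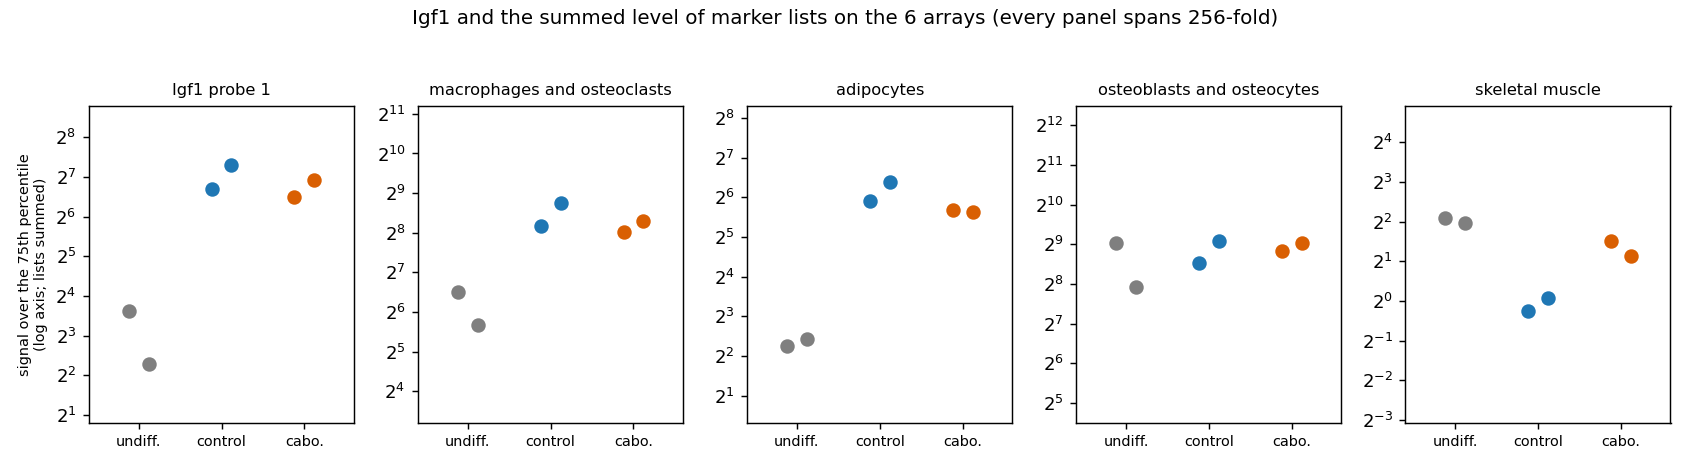
Igf1 at its brightest probe and the summed level of 4 marker lists on each array, as signal over the 75th percentile on log axes that all span the same range; points are arrays. The macrophage and osteoclast list and the adipocyte list were higher on all 4 differentiated arrays than on C1 and C2, as Igf1 was, while the osteoblast list overlapped between groups. Col1a1 and Col1a2 were the largest terms of the osteoblast sum and gave 0.23 and 0.25 for control minus undifferentiated. Bglap2, Dmp1, Phex, Mepe and Ibsp of the same list rose, Ibsp at 1 of 2 probes, so this sum does not show their rise.

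Over the 6 arrays, the named genes with the level most like that of Igf1 included Clec4a1, Trem2, Pdlim4 and Batf2, each with a Pearson r of at least 0.999 across the arrays. These r values describe 6 arrays in 3 groups that share scan dates and depth, and 954 of 16119 named genes had an r over 0.95 with Igf1. The measured growth hormone axis that lies upstream of Igf1 held 5 genes and 9 tested probes, and none passed in control against undifferentiated, also not at an unadjusted p under 0.05, where 9.88% of all probes were higher and 11.1% lower. Ghr, the growth hormone receptor, gave 0.90 at its brighter probe (adjusted p = 0.459).

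The second ligand, Igf2, was read by 1 dim probe at -3.19 and -4.29 on C1 and C2, -4.27 and -3.62 on D1 and D2, and -5.35 and -4.89 on X1 and X2. Control and undifferentiated arrays overlapped, and both cabozantinib arrays were lower than the other 4. The cabozantinib minus control difference of -1.18 ± 0.57 (SE) did not pass (adjusted p = 0.262), and with quantile normalization it shrank to -0.44. It passed in 3 of 16 alternative limma fits, with a lowest adjusted p of 0.0193, and lay between -1.66 and -0.44 over them. Among the RNA-binding proteins named for Igf2 mRNA, Igf2bp1 fell by 2.58 on the log2 scale with differentiation (adjusted p = 0.0109), while Igf2bp2 and Igf2bp3 did not pass. H19, the neighbouring imprinted transcript, was not matched to a probe here.

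The receptor Igf1r stood at 3.61 and 3.15 on C1 and C2, 2.61 and 2.74 on D1 and D2, and 2.96 and 3.14 on X1 and X2. The control arrays were the lowest and the range of the 6 arrays was about 1 on the log2 scale. No comparison passed for Igf1r, with differences of -0.71 (95% interval -1.82 to 0.40) for control minus undifferentiated and 0.38 (-0.73 to 1.49) for cabozantinib minus control.

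The binding proteins did not move together with differentiation. Igfbp5, a matrix-bound binding protein of bone, was at 4.08 and 4.63 on C1 and C2, 6.32 and 6.30 on D1 and D2, and 6.13 and 6.08 on X1 and X2. All differentiated arrays were above both undifferentiated ones, and the rise was 1.96 ± 0.49 (SE, adjusted p = 0.0352 in limma). This call held in 8 of 16 alternative limma fits: it was lost with quantile normalization (adjusted p = 0.108), without D1 (0.308), without D2 (0.204) and without either X1 or X2 (0.0743), among others.

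Igfbp3, the main carrier of IGFs in serum, was at -3.77 and -3.20 on C1 and C2, -6.35 and -5.48 on D1 and D2, and -7.04 and -7.28 on X1 and X2. It was well above background on C1, C2 and D2 only. From undifferentiated to control it fell by 2.43 on the log2 scale (SE 0.52, adjusted p = 0.0171), with the level on D1 not well above background. The call was lost without C2 (adjusted p = 0.0655), without D1 (0.192) and with normexp background correction (0.509), where the difference was -1.24. On the cabozantinib arrays it was at least 4.43-fold lower than on the undifferentiated arrays (adjusted p = 0.00397), a bound set by the lowest signal that was well above background, and this call was lost with normexp (adjusted p = 0.332).

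Igfbp4, a binding protein that PAPPA cuts, was at -1.54 and -1.15 on C1 and C2, -3.36 and -3.38 on D1 and D2, and -0.96 and -2.67 on X1 and X2. Its control arrays were the lowest of the 6 and nearly equal, while X1 lay above both undifferentiated arrays and X2 between them and the control arrays. The differentiation difference was -2.02 ± 0.60 (SE) and missed the threshold (adjusted p = 0.0696). It missed it also without the block (adjusted p = 0.0588) and passed in the fit of C1, C2, D1 and D2 alone without the block (adjusted p = 0.0152). Igfbp6, which prefers IGF2 as its ligand, lay between 0.19 and 1.58 on the 6 arrays, and no comparison passed.

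Igfbp2, a binding protein found in serum and in bone, was read by 2 probes that disagreed on differentiation. The brighter one (A_66_P135391) was at 1.45 and 1.55 on C1 and C2, 1.77 and 1.71 on D1 and D2, and 3.58 and 3.29 on X1 and X2. The other (A_55_P2056729) was at -0.97 and -1.34 on C1 and C2, -2.86 and -2.38 on D1 and D2, and -0.10 and -0.69 on X1 and X2. At both probes the 2 cabozantinib arrays were above all other arrays. From undifferentiated to control the probes gave 0.24 (adjusted p = 0.922) and -1.47 (adjusted p = 0.123), and the second passed as lower without the block (adjusted p = 0.0492) and in 3 of 16 alternative limma fits.

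Of the pappalysins, Pappa2, whose product cuts IGFBP3 and IGFBP5, rose with differentiation at its bright probe (A_55_P1984745). The level was 3.22 and 2.53 on C1 and C2, 4.68 and 5.27 on D1 and D2, and 6.29 and 6.58 on X1 and X2. The 3 groups did not overlap and stood in that order. The rise from undifferentiated to control was 2.10 ± 0.53 (SE, adjusted p = 0.0354), and it held in 11 of 16 alternative limma fits, with the highest adjusted p of 0.412 without D2. It was also lost without D1 (adjusted p = 0.0756) and without C2 (adjusted p = 0.0628). The second Pappa2 probe (A_52_P574993) was well above background on X1 and X2 only, at -4.54 and -4.37, against -6.91 and -7.57 on C1 and C2 and -7.66 and -7.27 on D1 and D2. It met the condition for testing through the cabozantinib arrays alone, so its calls are not counted as support, and counts are also given without it.

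Pappa was at 3.86 and 3.40 on C1 and C2, 2.60 and 2.74 on D1 and D2, and 3.50 and 3.66 on X1 and X2. The control arrays were below the other 4, and undifferentiated and cabozantinib arrays overlapped. Neither the differentiation difference of -0.97 ± 0.49 (SE, adjusted p = 0.323) nor the cabozantinib difference of 0.91 ± 0.49 (SE, adjusted p = 0.321) passed in limma with the block. Over 16 alternative limma fits the first lay between -1.27 and -0.66 and the second between 0.75 and 1.07.

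**Figure D3:**
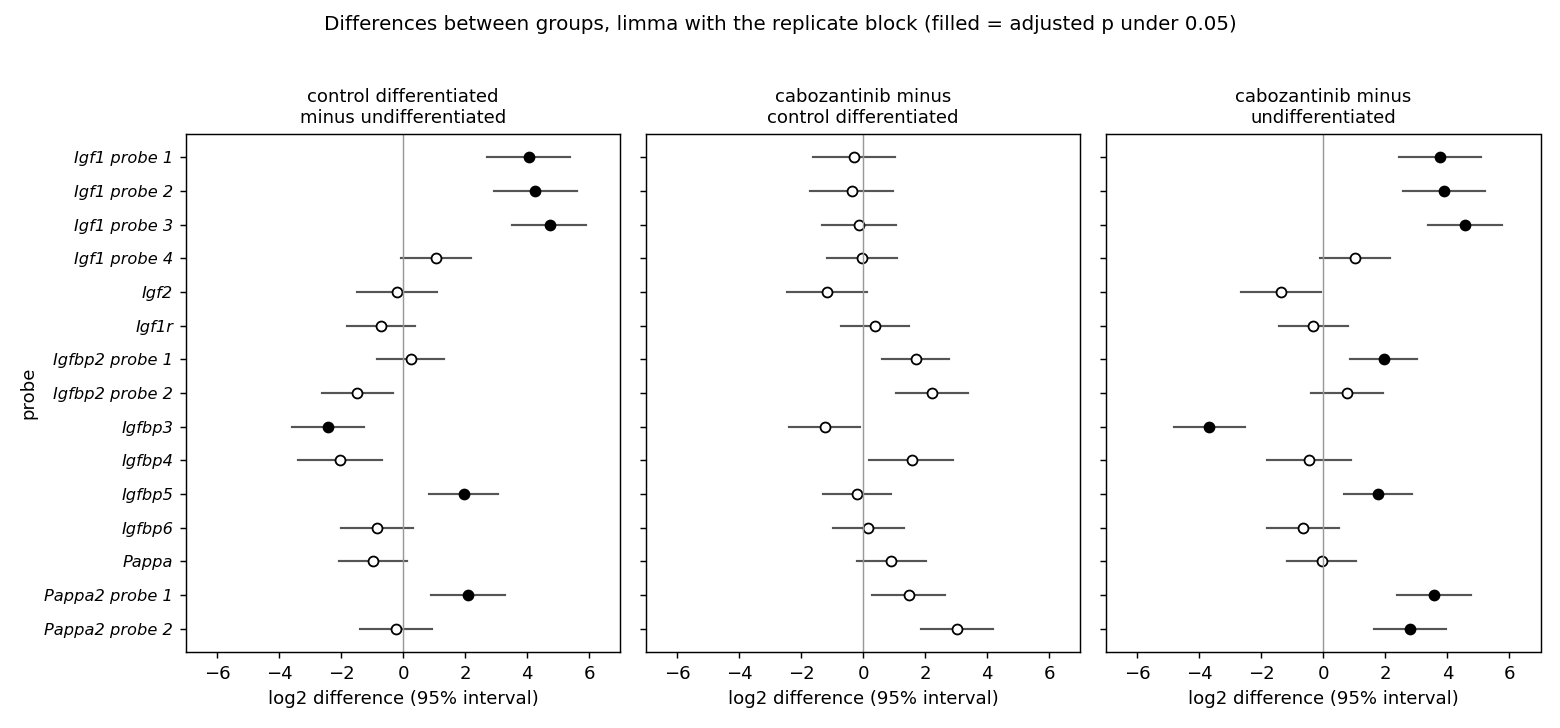
Log2 difference with its 95% interval for the 15 member probes in the 3 comparisons, from limma with the replicate block; filled points have an adjusted p under 0.05. With differentiation 6 probes passed, from cabozantinib to control none did, and from cabozantinib to undifferentiated 8 passed, the dim Pappa2 probe among them.

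The effect of cabozantinib was examined by setting treated against control differentiated arrays. Igfbp2 was 3.24-fold and 4.68-fold higher at its 2 probes and Pappa2 2.75-fold higher at its bright probe, Igfbp4 was 2.94-fold and Pappa 1.88-fold higher, and Igf1, Igf1r, Igfbp5 and Igfbp6 differed by at most 0.38 on the log2 scale in either direction. Igf2 gave -1.18 and Igfbp3 -1.24, the latter with D1, X1 and X2 not well above background, so that its size is not known. In limma with the replicate block, 0 of the 15 member probes passed in either direction. Over all probes 0% passed as higher and 0.00367%, a single probe, as lower, and the adjusted p values lay just over the threshold: 1 probe was under 0.05, 1193 were under 0.06 and 2928 under 0.1. Without the block 3 member probes rose and 0 fell, against 0.767% and 11.1% of all probes, and 2 rose without the dim Pappa2 probe. With a 2-fold change and an unadjusted p under 0.05 in the fit with the block, 5 member probes were higher, 4 of them without the dim Pappa2 probe, and 1 lower (Igfbp3), against 2.83% and 20.2% of all probes. The median over the 10 genes was 0.27, against -0.28 over all probes. The study chose Igfbp2, Pappa and Pappa2 on these same arrays as secreted factors raised by cabozantinib, so their direction here is not independent evidence. For Pappa and Igfbp2 the study also reported higher mRNA by real-time RT-PCR and more protein in conditioned medium by Western blot.

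The Igfbp2 differences were 1.69 ± 0.48 (SE) at the brighter probe, with an adjusted p of 0.0802 with the block and 0.0289 without it, and 2.23 ± 0.51 at the other, with 0.0559 and 0.0252. In the fit of D1, D2, X1 and X2 alone, without the block, the adjusted p values were 0.0182 and 0.0157. The difference at the brighter probe stayed between 1.54 and 1.85 over 16 alternative limma fits, and it passed in 5 of them.

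The bright Pappa2 probe gave 1.46 ± 0.53 (SE), with an adjusted p of 0.137 with the block, 0.0593 without it and 0.0327 in the fit of the 4 arrays alone, and it passed in 4 of 16 alternative limma fits. At the dim Pappa2 probe the cabozantinib arrays were at least 3.05-fold higher than the control arrays, where the probe was not well above background. With no filter on dim probes, the fit in which its entry does not depend on the treated arrays, the adjusted p was 0.149, and with normexp background correction its difference shrank from 3.01 to 0.48. The other members that met the 2-fold rule were Igfbp4, with 1.56 ± 0.60 (SE, adjusted p = 0.159), and Igfbp3, with -1.24 ± 0.52 (SE, adjusted p = 0.184). Igfbp3 was well above background on 1 of the 4 arrays compared, and its difference became -0.22 with quantile normalization. The Igfbp4 difference rested on X1: it was 0.61 without that array, against 2.50 without X2. For Igf1 the 95% interval of the difference at the brightest probe ran from -1.62 to 1.04, and for Igfbp5 from -1.31 to 0.90.

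**Figure D4:**
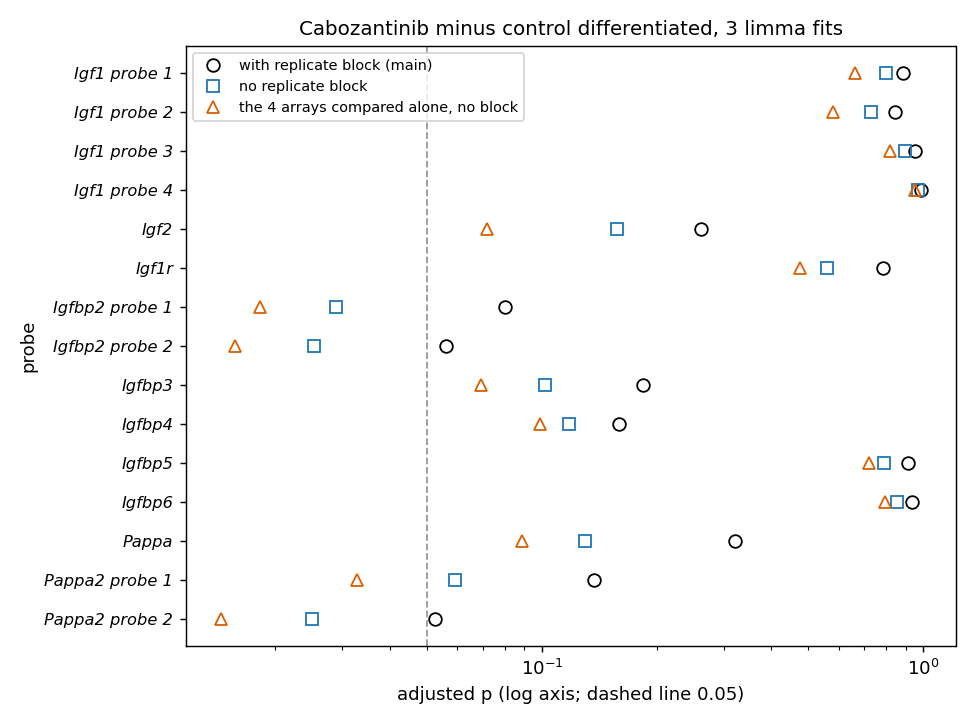
Adjusted p of the 15 member probes for cabozantinib minus control in 3 limma fits, on a log axis with the threshold of 0.05 dashed; circles are the fit with the replicate block, squares the fit without it and triangles the fit of the 4 arrays compared alone. The 2 Igfbp2 probes lie at 0.0802 and 0.0559 with the block and at 0.0289 and 0.0252 without it, and the dim Pappa2 probe beside them was tested only through X1 and X2.

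No probe of a marker list passed between the treated and control arrays with the block. Without it some did, where 0.767% of all probes rose and 11.1% fell. The adipocyte median was -1.07, against -0.28 over all probes, and without the block Cfd and Fabp4 fell (adjusted p = 0.0252 and 0.0334). Cebpa (1.33) and both Lpl probes (0.30 and 1.13) went the other way and did not pass in that fit. In that fit the endothelial genes Cdh5 and Kdr fell, Kdr at 1 of 2 probes, while Pecam1 gave 0.60 and did not pass (adjusted p = 0.286). Both probes of Ibsp, which encodes bone sialoprotein, rose. Acta1 rose, and Myod1 and 1 of 3 Csf1r probes fell. The summed level of skeletal muscle genes was 4.30 and 3.94 on C1 and C2, 0.837 and 1.06 on D1 and D2, and 2.85 and 2.19 on X1 and X2, with Acta1 the largest term of the sum on every array and Des and Ckm not tested because too dim. The summed endothelial level was 1.11 and 0.682, 0.889 and 1.19, and 0.595 and 0.685 in the same order over 3 tested genes of 6, with Kdr the largest term of the sum on every array and Tek and Tie1 not well above background on any array. Their part in the Igfbp2 and Pappa2 differences was not tested.

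Igfbp2 had a pattern shared by fewer genes than that of Igf1. The named genes most like it over the 6 arrays were Aldh1a1, A930005H10Rik, Slc25a45, Tnmd and Entpd3, with Pearson r between 0.976 and 0.982, and 27 of 16119 named genes had an r over 0.95. As for Igf1, this describes 6 arrays in 3 groups.

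Cabozantinib-treated arrays were last set against undifferentiated ones. This comparison shares arrays with both others. Here 7 member probes rose, 6 of them without the dim Pappa2 probe, against 4.28% of all probes, and 1 fell, against 8.96%. Igf1 was 13.5-fold higher at its brightest probe (3.76 ± 0.59 SE, adjusted p = 0.00638) and rose at 3 of 4 probes, and the difference was 4.68 without C1 and 2.84 without C2. Pappa2 rose 11.8-fold at its bright probe (3.56 ± 0.53 SE, adjusted p = 0.00491), a call that held in all 16 alternative limma fits, and was at least 3.38-fold higher at the dim one. With no filter on dim probes the adjusted p at the dim probe was 0.0377, and the call was lost without X1 (adjusted p = 0.0502), without X2 (0.127) and with normexp (0.878), where the difference was 0.27. Igfbp2 rose at its brighter probe (1.94 ± 0.48 SE, adjusted p = 0.0323) and not at the other (0.76, adjusted p = 0.350), and Igfbp5 rose by 1.75 (adjusted p = 0.0465). The Igfbp2 call held in 10 of 16 alternative limma fits and was lost without X1 (adjusted p = 0.380), without X2 (0.281), with quantile normalization (0.0547), with the authors' values (0.0737), with normexp (0.160) and with no filter on dim probes (0.0821). The Igfbp5 call held in 6 of 16 and was lost without X1 (0.467), without X2 (0.351), without either D1 or D2 (0.0632) and with quantile normalization (0.122), among others. The median over the 10 genes was -0.19, against -0.42 over all probes.

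The rest of the IGF pathway was taken from 8 lists with 71 tested probes. With the block, 0 rose and 6 fell with differentiation, or 8.45% lower against 4.92% of all probes, 0 passed from control to cabozantinib, and 0 rose and 10 fell from undifferentiated to cabozantinib, or 14.1% lower against 8.96% of all probes. Leaving out probes that were well above background in 1 group only, 5 and 8 of 69 fell, or 7.25% against 4.45% and 11.6% against 8.34% of all probes with the same ones left out. Among the other receptors and adaptors, 0 of 9 tested probes for 7 genes passed in limma with the block in any comparison, and at an unadjusted p under 0.05 there was 1 lower probe for differentiation (Grb10), where 11.1% of all probes were lower, and 1 for cabozantinib (Irs2), where 20.2% were. Igf2r, which clears IGF2, gave -0.69 and -0.44 for differentiation and cabozantinib, Irs1 gave -0.39 and 0.68 and Irs2 gave -0.04 and -1.24 at their brightest probes, and Grb10, an adaptor that restrains the receptor, gave -1.20 and 0.00. Insr, the insulin receptor, gave -0.10 and -1.25 at its brightest probe. Its second tested probe, well above background on 3 arrays, gave -2.44 and 1.09. Of the other binding proteins, Igfbp7 was at 2.13 and 0.92 on C1 and C2, 0.74 and 1.53 on D1 and D2, and -0.98 and -0.55 on X1 and X2. Both cabozantinib arrays were below the other 4, and the cabozantinib minus control difference of -1.89 missed the threshold (adjusted p = 0.0980 with the block and 0.0549 without it). It passed in the fit of D1, D2, X1 and X2 alone, without the block (adjusted p = 0.0219). From undifferentiated to cabozantinib Igfbp7 fell by 2.29 on the log2 scale (adjusted p = 0.0364). Igfbp1 and Igfbpl1 were not well above background on any array.

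The only pappalysin inhibitor tested, Stc2, gave -0.99 with differentiation (adjusted p = 0.363) and 0.14 with cabozantinib (adjusted p = 0.949), and Stc1 and Prg2 were not well above background on any array. The other proteases that cut binding proteins, Htra1, Adam12, Adamts1 and Ctsd, gave no call for differentiation in 6 tested probes, with 1 higher and 3 lower at an unadjusted p under 0.05, against 9.88% and 11.1% of all probes. Htra1 was at 5.29 and 4.27 on C1 and C2, 5.78 and 6.65 on D1 and D2, and 5.76 and 6.04 on X1 and X2, with a differentiation difference of 1.44 (adjusted p = 0.181). From undifferentiated to cabozantinib, Adam12 was at least 1.70-fold lower (adjusted p = 0.0200) at its dimmer tested probe, which was not well above background on X1 and X2, and did not pass at the brighter one. The dimmer Ctsd probe was tested only through C1 and C2, where it was at least 2.50-fold higher than on X1 and X2, and the brighter one gave 0.46 (adjusted p = 0.600). From control to cabozantinib these dimmer Adam12 and Ctsd probes fell without the block (adjusted p = 0.025 and 0.0352), where 11.1% of all probes fell. The Ctsd probe was not well above background on any of D1, D2, X1 and X2.

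Below the receptor, 3 of 24 tested probes of the PI3K-AKT branch fell with differentiation and 0 rose, where 4.92% and 4.74% of all probes did so. They read Mtor (-2.33, adjusted p = 0.0222), Pik3r1 (at least 4.73-fold lower, adjusted p = 0.0254) and the dimmest tested of 3 Rps6kb1 probes (at least 2.83-fold lower, adjusted p = 0.0120), the last 2 not well above background on D1 and D2, while Akt1 and Akt2 did not pass. In the RAS-MAPK branch 2 of 16 tested probes fell, 1 for Hras (-4.74, adjusted p = 0.00157, with D1 not well above background; a dimmer probe gave 0.65, adjusted p = 0.708) and 1 for Map2k2 (at least 8.13-fold lower), which was well above background on C1 and C2 alone and so was tested only through them, leaving 1 of 15 without it. A brighter Map2k2 probe gave -0.90 (adjusted p = 0.389). From control to cabozantinib none of these probes passed with the block, with 3 higher and 2 lower over both branches at an unadjusted p under 0.05, where 2.83% of all probes were higher and 20.2% lower. Without the block 0.767% of all probes rose and 11.1% fell. In that fit the Foxo3 probe, not well above background on X1 and X2, fell, as did the dimmer Mapk3 probe, while the brighter Mapk3 probe gave 0.46. The dimmest tested Rps6kb1 probe, not well above background on D1, D2 and X2, rose, and the brighter ones gave 0.09 and 0.19. The dim Map2k2 probe, which was not well above background in either group, rose too. From undifferentiated to cabozantinib 3 probes of the RAS-MAPK branch, for Hras, Map2k2 and Mapk3, fell, or 2 without the dim Map2k2 probe, as did Igf2bp1 and both probes of Igf2bp2.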

How the data were processed

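The deposited scanner files give, per the file headers, spot intensity in arbitrary units that Feature Extraction 11.0.1.1 background-subtracted and detrended, with 43020 non-control spots per array. The authors also deposited log2 values of 30439 probes with nearly equal medians on the 6 arrays, and the steps that made them are not given in the sources used here. Probes were named through their RefSeq accessions (69.1% had a gene), and the files used here pair no probe with its sequence. Control and outlier spots were left out, log2 intensity was averaged over the spots of a probe and each array's 75th percentile was then taken off. The 27236 probes well above background on at least 2 arrays were fitted in limma 3.58.1 (R 4.3.3) over all 6 arrays, with the group and the replicate number as terms, the latter because pairing is named in the study's statistics. Each probe had 2 residual degrees of freedom, to which pooling added 7.38, and p values were adjusted by Benjamini-Hochberg over all tested probes. With 2 arrays per group an exact permutation test of 1 probe cannot give a two-sided p below 0.333. The number of arrays limits the precision.

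Members and gene lists were chosen with earlier results of these data known. The text names every member at every probe, other IGF genes that were called, a fixed set of further IGF genes, and the 5 genes most like Igf1 and Igfbp2, except that a few items under these rules are not reported here. List genes of other cell types were named beyond this rule, after their values were seen. Alternatives covered normalization, the authors' values, background correction, the filter, the block, the arrays in the fit, variance pooling, single-probe tests and each array left out. Counts without probes well above background in 1 group only were added after seeing the data. Data were also simulated with noise drawn independently for each array, using the spread of the D and X pairs shuffled over probes. There the fit with the block called none of the changed probes for cabozantinib minus control and the fit without it called some. The simulated arrays held no replicate structure, so this cannot show which fit suits the measured arrays. Sequences came from RefSeq promoter windows. Tables were made with Python 3.11.15 and pandas 2.3.3, and figures with matplotlib 3.10.9.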

Additional observations from a re-analysis of the deposited data

How the results depend on the processing

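The replicate numbers did not behave as pairs: the replicate differences of C and D arrays correlated at -0.51, of C and X arrays at -0.53 and of D and X arrays at 0.26 over 27196 probes. The replicate block was kept because it was fixed as the main fit. Without the block the counts of all probes called went from 2630 to 3696 for control minus undifferentiated, from 1 to 3240 for cabozantinib minus control and from 3604 to 6631 for cabozantinib minus undifferentiated, and those of member probes from 6 to 7, from 0 to 3 and from 8 to 8. In the fits of the arrays compared alone, without the block, cabozantinib minus control gave 5354 probes and 4 member probes. The settings in the rest of this paragraph were chosen after seeing the data. With a replicate block in which C1 and C2 swapped numbers, all probes called were 7210, 8190 and 12205 in the 3 comparisons, with 8 member probes for cabozantinib minus control. Without the replicate block and with quantile normalization they were 4370 and 139 in the first 2 comparisons, with 1 member probe in the second. With normexp on the median signals they were 709, 0 and 465, with 3, 0 and 4 member probes.

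Of the planned settings, for all probes in the same order of comparisons, the authors' values gave 1747, 0 and 1171, no filter on dim probes 1652, 0 and 1294, and a 2-fold change with an unadjusted p under 0.05 gave 5725, 6269 and 8753, with 6 member probes in the second comparison. Quantile normalization gave 0 and 1527 in the last 2 comparisons, and probes well above background on all 6 arrays 2 and 1474. The variance trend with robust pooling gave 126 for cabozantinib minus control. The methods' t-test, paired, gave 0 in every comparison after adjustment, members included, and 1611, 4221 and 2185 probes at an unadjusted p under 0.05, and the unpaired test gave 0, 0 and 5 after adjustment and 4083, 6004 and 6358 before it, with no member called after adjustment. Leaving out 1 array at a time gave 1746 to 5458, 48 to 6617 and 785 to 10228 probes, and 3 to 6, 0 to 5 and 5 to 9 member probes. The 6617 came without C1 and also without C2. The cause was not tested.

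Signs turned for members whose difference was not called. At the brightest probe of each member, for control minus undifferentiated these were Igf2 without C1 (0.62) and without D1 (0.28), within a range of -1.03 to 0.62 over the arrays left out, and Igfbp2 as the mean of its probes (-0.61). For cabozantinib minus control they were Igf1 without D2 (0.24) and without X1 (0.09), within -0.82 to 0.24, and Igfbp6 without X2 (-0.31), within -0.31 to 0.66. For cabozantinib minus undifferentiated they were Igfbp4 without C2 (0.16) and without X2 (0.48), within -1.41 to 0.48, and Pappa with normexp (0.00), without C1 (0.25) and without X1 (0.11), within -0.36 to 0.25. Of the dimmer member probes, the sign of 1 turned for control minus undifferentiated (Pappa2, -0.70 to 0.24) and of 3 for cabozantinib minus control (all Igf1).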
